A study of Rattus norvegicus with 12 samples.

Results

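The early growth response genes Egr1, Egr2, Egr3 and Egr4, the orphan nuclear receptor genes Nr4a1, Nr4a2 and Nr4a3, and the EGR corepressor genes Nab1 and Nab2 were followed in hippocampal RNA of blast-exposed rats with and without boldine. They are 9 of the 17494 genes in the deposited counts. The genes were picked by name, with the difference between the treatments in these same libraries already known, so that this difference is a description here and is no evidence about them. Boldine is an alkaloid of the Chilean boldo tree. All 12 rats were male wild-type Long Evans rats that received 3 blast exposures, 1 per day, at 10 weeks of age and were killed 29 weeks after blast. Before that, the study put rats of both treatments through object recognition tests and, 27 weeks after blast, cued fear conditioning with footshock. The part of this testing in the values below was not tested. The 6 blast-boldine rats ate chow with boldine at 500 mg/kg from week 2 after blast, and the 6 blast-controls ate the same chow without it. RNA of rats without blast was not analysed here, so that no value below says what blast did to these genes.

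EGR proteins are zinc-finger transcription factors and NR4A proteins are nuclear receptors that act without a known physiological ligand. Both families belong to the immediate early genes, which neurons transcribe within minutes of synaptic activity without new protein synthesis. Serum response factor (SRF) with its ELK partners acts at serum response elements (SRE), and CREB acts at cyclic AMP response elements (CRE), to switch these genes on. In the hippocampus both families are known for their part in lasting synaptic plasticity and memory. NAB1 and NAB2 bind several, not all, EGR proteins and repress their targets, and Nab2 is itself induced by EGR factors, which closes a feedback loop.

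Each rat gave 1 library, with the tissue labelled as brain and named as hippocampus in the study's methods. Of 11 hippocampal neuron genes followed, 10 had counts well above the floor in all rats other than rat 6, among them Neurod6 (179 to 284 CPM) and Prox1 (89.7 to 215 CPM), and Spink8 was at 0 to 0.197 CPM. CPM are counts relative to the library total after TMM scaling. Total counts on genes were 10616247 to 20990903 in blast-boldine rats and 10148474 to 40850106 in 5 blast-controls, but 74008 in blast-control rat 6. In rat 6 the 9 genes had between 1 and 11 counts each, 1 count was worth 15.8 CPM, and the 3 counts taken as the smallest detected value were 47.5 CPM, against 0.0658 to 0.307 CPM elsewhere. Its Nr4a1 value of 79.2 CPM, from 5 counts, had an exact 95% Poisson interval of 25.7 to 185 CPM, which covers counting error only and spans every other rat. Levels in CPM are therefore given without rat 6 unless it is named, whereas fitted fold changes and counts of genes come from all 12 rats unless rat 6 is said to be left out. The libraries also fell into 2 sets of 6, each with 3 rats of each treatment, that were inferred from the library suffixes and rat numbers and are not named in the labels. Of the 4 assignments that these allow, the one used was picked because it accounted for most of the first principal component of 11 rats. Its share was 95.1%, against 57.3%, 14.9% and 2.84% for the others, and is thus no independent check of the sets. That component held 66.0% of the variance, and treatment accounted for 1.53% of the component. Set A held blast-controls 1, 7 and 9 and blast-boldine rats 20, 32 and 35, and set B blast-controls 4, 5 and 6 and blast-boldine rats 12, 17 and 19.

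All 9 genes passed the filter on low counts. Levels between genes were compared per kilobase of exon, as mean CPM per kilobase over 11 rats. These values depend on the annotated exon length, which was shortest for Egr3 (1164 bases) and Egr1 (1527 bases), against 4396 for Nr4a3. Whether the short models lack untranslated exon was not tested, which limits the order between genes. In CPM without length, Nr4a3 (109) stood above Egr1 (42.0) and Egr3 (40.9). Egr3 stood highest at 35.1 ± 15.8 (SD, n = 11), followed by Egr1 at 27.5 ± 10.4, Nr4a2 at 25.6 and Nr4a3 at 24.7. Nab1 at 14.7, Nr4a1 at 14.3 and Nab2 at 12.2 formed a middle group. Egr4 at 3.08 ± 1.28 and Egr2 at 1.35 ± 1.01 were the lowest. The order between neighbours held in 9 of 11 rats for Egr3 over Egr1, but in 6 of 11 for Egr1 over Nr4a2 and in 7 of 11 for Nr4a2 over Nr4a3, for Nab1 over Nr4a1 and for Nr4a1 over Nab2, so that those neighbours did not differ beyond their spread. The order also differed by library set. In set A Nr4a2 (23.7) was above Egr3 (23.2) and Nr4a3 (16.04) was near Nab1 (14.4), and in set B Nr4a3 (35.1) was above Nr4a2 (27.8). Over all 11 rats Nr4a3 was above Nab1 in 10 of 11, Nab2 above Egr4 in 11 of 11 and Egr4 above Egr2 in 10 of 11.

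The promoters of these genes were searched for the letters of sites known for activity-driven factors. RefSeq windows of 250 bases before to 50 bases after the gene start (build GRCr8) were found for 7 of the 9 genes, and Egr3 and Nr4a3 had no entry. The windows of Egr1 (chr18:26736828-26737127, plus strand), Egr2 (chr20:21054392-21054691, minus strand), Egr4 (chr4:119607768-119608067, minus strand) and Nr4a1 (chr7:134259888-134260187, plus strand) are shown because they hold every SRE core found and CRE-like sites of both families, and 3 of them belong to the genes with the largest differences between treatments. The window of Nr4a2, which held a CRE-like site too, is not shown. The windows shown are written 5′ to 3′ on the gene's strand. Capitals mark TGACG, a short form that every full CRE contains, the core of the SRE, and the EGR site GCGNGGGCG, each on either strand.
Egr1: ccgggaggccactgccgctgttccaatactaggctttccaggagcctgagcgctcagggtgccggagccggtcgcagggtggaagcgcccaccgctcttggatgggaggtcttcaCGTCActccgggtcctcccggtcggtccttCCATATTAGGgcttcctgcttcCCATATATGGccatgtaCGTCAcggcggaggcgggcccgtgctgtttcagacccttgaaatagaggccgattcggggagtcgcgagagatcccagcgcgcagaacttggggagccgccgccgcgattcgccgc
Egr2: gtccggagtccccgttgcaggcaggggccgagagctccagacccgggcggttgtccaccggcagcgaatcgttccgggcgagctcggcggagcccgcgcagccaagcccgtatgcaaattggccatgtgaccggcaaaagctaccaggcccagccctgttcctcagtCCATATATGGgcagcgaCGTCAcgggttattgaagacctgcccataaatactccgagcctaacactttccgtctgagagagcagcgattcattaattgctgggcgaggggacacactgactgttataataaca
Egr4: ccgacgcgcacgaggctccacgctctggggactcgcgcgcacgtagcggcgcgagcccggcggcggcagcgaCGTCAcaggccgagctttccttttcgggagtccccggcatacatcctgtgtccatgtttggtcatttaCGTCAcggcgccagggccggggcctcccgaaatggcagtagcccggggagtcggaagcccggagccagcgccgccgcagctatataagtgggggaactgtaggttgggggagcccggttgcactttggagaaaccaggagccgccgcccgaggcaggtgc
Nr4a1: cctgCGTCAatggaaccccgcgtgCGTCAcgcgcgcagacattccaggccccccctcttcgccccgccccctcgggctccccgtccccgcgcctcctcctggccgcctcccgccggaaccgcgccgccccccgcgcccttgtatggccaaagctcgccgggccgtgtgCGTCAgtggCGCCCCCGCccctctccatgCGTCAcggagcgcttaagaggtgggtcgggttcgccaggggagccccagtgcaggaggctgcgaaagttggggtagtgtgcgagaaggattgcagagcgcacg

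Egr1 held 2 SRE cores and Egr2 held 1, and none was found in the windows of Egr4, Nr4a1, Nr4a2, Nab1 and Nab2, against 1.64% of all 33469 rat promoters of the same length with a core. The short CRE was found in 6 of 7 windows, 4 times in Nr4a1, 2 times in Egr1 and in Egr4, 1 time in Egr2, Nr4a2 and Nab1 and not in Nab2, against 21.2% of all promoters. The EGR site was found 1 time in Nr4a1 and 4 times in Nab1, against 4.98% of all promoters. The full CRE, TGACGTCA (1.83% of all promoters), and the NR4A site AAAGGTCA (1.43%) were in none of the 7. These are matches of letters in a fixed window and describe no binding.

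**Figure D1:**
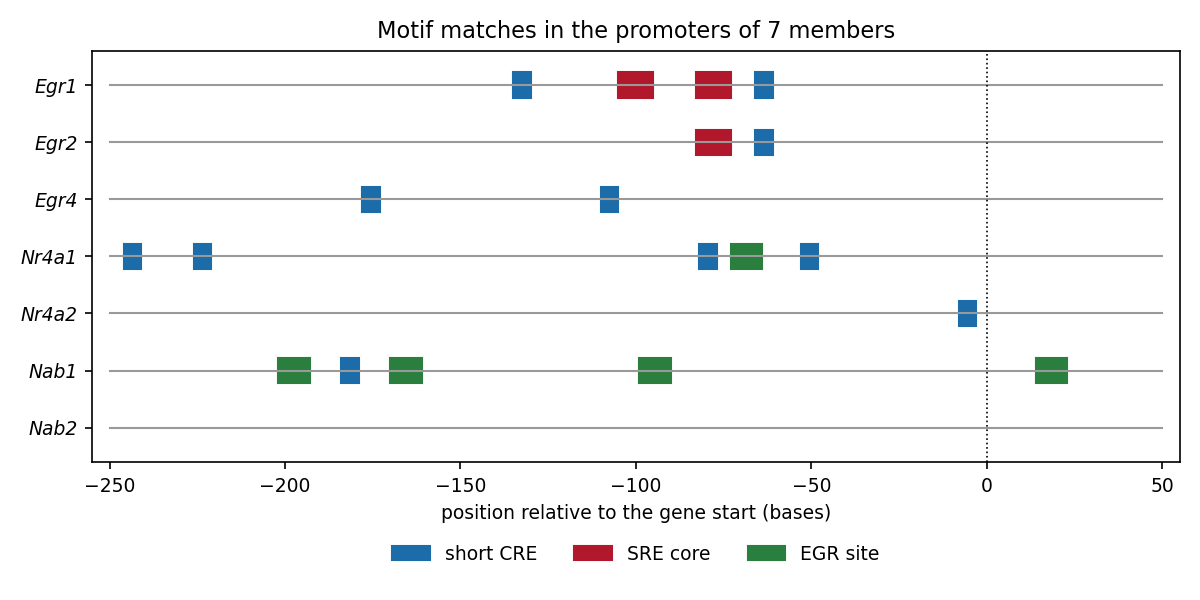
Matches to the short CRE, the SRE core and the EGR site in the promoters of 7 genes, by position in bases relative to the gene start (dotted line). Nr4a1 carries 4 short CREs, Egr1 carries 2 SRE cores and Nab1 carries 4 EGR sites.

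Among the NR4A receptors, Nr4a1 (Nur77, chromosome 7 of mRatBN7.2, 132381391 to 132389299, plus strand, 7 exons) showed lower values in blast-boldine rats. Blast-controls 1, 4, 5, 7 and 9 had 30.2, 58.5, 40.0, 47.6 and 41.4 CPM, and the blast-boldine rats lay between 26.4 and 30.9 CPM with a median of 29.1. Blast-boldine rats were thus all below the control median, 4 of 6 were below every control, and the groups overlapped only through control rat 1. The mean was 29.1 ± 1.69 CPM (SD, n = 6) against 43.5 ± 10.4 (n = 5), and the fitted log2 fold change was -0.63 (SE 0.17) over all 12 rats and -0.58 (SE 0.15) without rat 6. Within set A the difference of mean log2 CPM was -0.48 and within set B -0.67, and in each set every blast-boldine rat lay below every control. Nr4a1 was the only one of the 9 genes with that order in both sets, and 0.706% of all genes tested had it. The treated rats were close to each other, with a coefficient of variation of 5.80% where counting alone gives 4.61%, whereas the controls varied by 23.9% where counting alone gives 4.02%.

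Nr4a2 (Nurr1, needed for midbrain dopamine neurons and induced by activity in the hippocampus, chromosome 3, 41690526 to 41695995, minus strand, 7 exons) had 67.9, 60.2, 94.0, 88.7 and 62.0 CPM in controls 1, 4, 5, 7 and 9, and 41.1 to 74.98 CPM with a median of 59.0 in blast-boldine rats. The groups overlapped, and 3 of 6 blast-boldine rats were below every control. The log2 fold change was -0.47 (SE 0.24) over 12 rats and -0.36 (SE 0.20) without rat 6, whose 174 CPM rested on 11 counts. The difference was -0.59 within set A and -0.16 within set B. Nr4a3 (Nor-1, chromosome 5, 62361645 to 62401484, plus strand, 8 exons) had almost the same mean in both groups, 108 ± 43.2 CPM (n = 6) against 109 ± 51.8 (n = 5), with a log2 fold change of 0.042 (SE 0.33) over 12 rats and -0.014 (SE 0.35) without rat 6, and differences of -0.068 within set A and -0.16 within set B. The fold change therefore differed among the receptors in this description, and whether they differ from each other was not tested.

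Among the EGR factors, Egr2 (Krox-20, also known from hindbrain patterning and Schwann cell myelination, chromosome 20, 21051270 to 21055562, minus strand, 2 exons) had the lowest levels and, over 12 rats, the largest fold change. Controls 1, 4, 5, 7 and 9 had 2.30, 3.95, 12.5, 4.56 and 4.59 CPM, and blast-boldine rats had 1.14 to 3.97 CPM with a median of 2.95. The groups overlapped, with 2 of 6 treated rats below every control, and control rat 5 alone stood above 5 CPM. The log2 fold change was -1.10 (SE 0.43) over 12 rats and -1.04 (SE 0.42) without rat 6, and -0.60 without rat 5, where Egr4 (-0.86) and Nr4a1 (-0.65) were larger. The difference was -0.70 within set A and -1.22 within set B. These levels rest on 40 to 122 counts in controls and 23 to 67 in treated rats. Their coefficients of variation were 71.3% and 35.1%, where counting alone gives 12.03% and 15.9%. Of the genes listed for Schwann cells, Pmp2 (at most 0.586 CPM) and Ncmap (at most 0.116 CPM) were below 1 CPM in all 11 rats, Prx was at 1.42 to 2.68 CPM, and Sox10, also a gene of oligodendrocytes, and Pou3f1, also a gene of neurons, were at 53.4 to 83.3 and 39.9 to 110.5 CPM.

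Egr4 (chromosome 4, 118047869 to 118050328, minus strand, 2 exons) had 5.75, 13.0, 5.53, 7.18 and 10.4 CPM in the same controls and 3.37 to 6.00 CPM with a median of 5.30 in blast-boldine rats. The groups overlapped in the range of control rats 1 and 5, and 3 of 6 treated rats were below every control. The log2 fold change was -0.75 (SE 0.27) over 12 rats and -0.70 (SE 0.24) without rat 6, with differences of -0.51 within set A and -0.80 within set B.

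Egr1 (zif268, widely used as a marker of recent neuronal activity, chromosome 18, 26463333 to 26465531, plus strand, 2 exons) had 42.1, 80.8, 39.1, 35.7 and 35.9 CPM in controls and 20.5 to 54.4 CPM with a median of 38.7 in blast-boldine rats. Control rat 4 stood apart, and the groups overlapped, with 3 of 6 treated rats on each side of the control median. The log2 fold change was -0.25 (SE 0.29) over 12 rats, -0.29 (SE 0.29) without rat 6 and 0.031 without rat 4. Within set A all treated rats were below all controls, with a difference of -0.51, and within set B the difference was -0.20. Egr3 (also an immediate early gene, chromosome 15, 45150883 to 45153339, plus strand, 2 exons) had 31.2, 79.8, 43.8, 24.4 and 29.6 CPM in controls and 23.3 to 60.3 CPM with a median of 39.7 in blast-boldine rats. Its log2 fold change was -0.11 (SE 0.35) over 12 rats, -0.053 (SE 0.36) without rat 6 and 0.23 without rat 4, which also held the highest Egr3 value, with differences of -0.15 within set A and -0.11 within set B.

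Among the corepressors, Nab1 (chromosome 9, 49053671 to 49093078, plus strand, 8 exons) had 65.9 ± 5.66 CPM (n = 5) in controls and 67.3 ± 5.41 (n = 6) in blast-boldine rats, a log2 fold change of 0.014 (SE 0.11) over 12 rats and 0.027 (SE 0.098) without rat 6 that took the other sign under other scalings. Its difference was -0.080 within set A and 0.15 within set B, where all 3 treated rats were above both controls. Nab2 (chromosome 7, 63497589 to 63503981, minus strand, 7 exons) had 46.5, 36.4, 43.3, 44.5 and 50.9 CPM in controls and 26.8 to 46.9 CPM with a median of 40.8 in blast-boldine rats, a log2 fold change of -0.22 (SE 0.17) over 12 rats and, without rat 6, -0.22 (SE 0.17). This fold change was -0.15 without treated rat 12 and -0.14 without treated rat 17. The 3 lowest Nab2 values were those of the treated rats of set B, where the difference was -0.41, against -0.039 in set A.

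**Figure D2:**
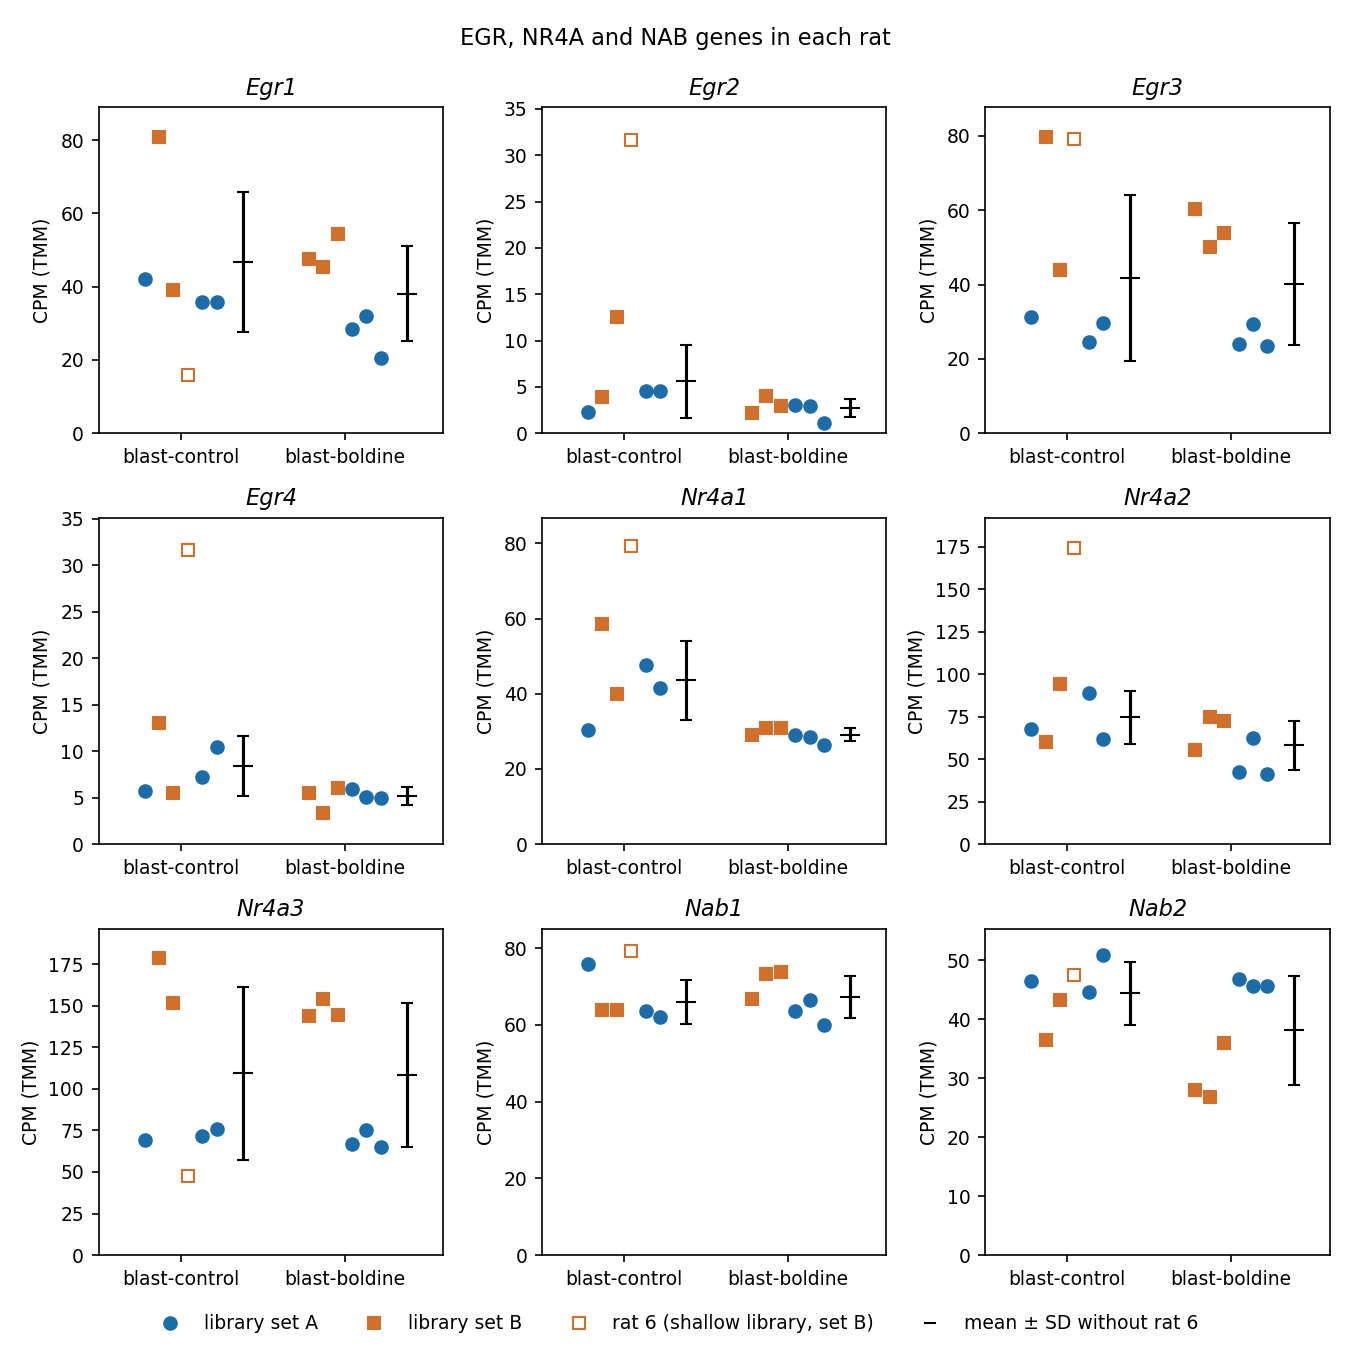
CPM of each gene in each rat by treatment, with library set by colour and shape, rat 6 as an open square, and the mean ± SD without rat 6 as bars. The 6 blast-boldine values of Nr4a1 lie between 26.4 and 30.9 CPM, whereas Nr4a3 and Egr3 split by library set within both treatments.

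Across the 9 genes, 7 had a lower fitted value in blast-boldine rats, beside 48.7% of the 12325 genes tested, and their median log2 fold change was -0.25, beside 0.0046 for all genes tested. Without rat 6, 8 of the 9 were lower, beside 50.3% of 12529 genes, with a median of -0.29, beside -0.00097 for all genes. In the quasi-likelihood test of edgeR, adjusted by Benjamini-Hochberg, 0 of 12325 genes, which is 0%, passed an adjusted p of 0.05. At an unadjusted p under 0.05 there were 132 genes in edgeR and 85 in DESeq2, and 175 and 279 without rat 6. Of the 9 genes, 3 (Nr4a1, Egr2 and Egr4) were among those lower at that level, beside 0.519% of all genes. In DESeq2 these and Nr4a2 made 4, beside 0.344% of all genes, and with library set as a covariate in edgeR these, Nr4a2 and Egr1 made 5, beside 2.31%. Without rat 6, Nr4a1, Egr2 and Egr4 were the 3 lower at that level in edgeR (beside 0.846% of all genes) and in DESeq2 (beside 0.943%), so that the count of Nr4a2 in DESeq2 rests on rat 6. In edgeR, Egr2 was no longer under that level without control rat 5, nor Egr4 without control rat 4, whereas Nr4a2 came under it without control rat 4 or 9 or treated rat 17 or 19. Nothing is read from these shares, since the same contrast was known when the genes were picked. No gene of the 9 separated the groups without overlap, beside 0.146% of all genes. In both sets the mean of 8 of the 9 genes, all but Nab1, was lower in treated rats, beside 23.5% of all genes. In set B this rests on control rat 4 for Egr1 and Egr3 and on control rat 5 for Nr4a2. Control rat 5 was at 39.1 CPM for Egr1 and 43.8 CPM for Egr3, below every treated rat of set B. For Nr4a2, control rat 4 was at 60.2 CPM, below the treated mean of 67.7 CPM in that set. With library set as a covariate and rat 6 left out, the log2 fold changes were -0.59 (SE 0.12) for Nr4a1, -1.01 (SE 0.35) for Egr2, -0.69 (SE 0.23) for Egr4, -0.42 (SE 0.17) for Nr4a2 and -0.40 (SE 0.17) for Egr1, and -0.11 (SE 0.066) for Nr4a3.

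**Figure D3:**
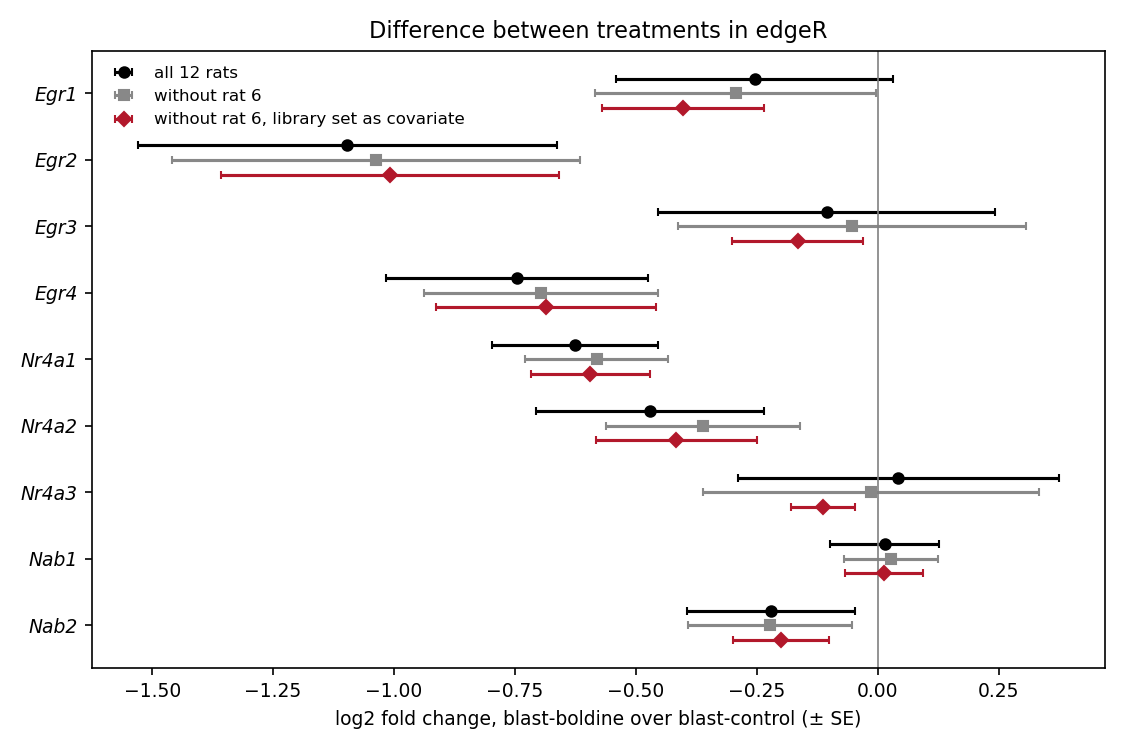
Log2 fold change of each gene, blast-boldine over blast-control, from edgeR with its standard error, for all 12 rats, without rat 6, and without rat 6 with library set as a covariate. Egr2, Egr4, Nr4a1, Nr4a2 and Nab2 lie below 0 by more than their standard error in all 3 fits. Nab1 lies near 0, and Nr4a3 does so in the first 2 fits and is at -0.11 (SE 0.066) in the third.

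Whether the difference between treatments itself differed between library sets was tested with an interaction term, which the choice of the genes had not used. In the quasi-likelihood test of edgeR, adjusted by Benjamini-Hochberg, 0 of 12325 genes (0%) and 0 of the 9 passed, with 530 genes at an unadjusted p under 0.05, none of them among the 9. DESeq2 called 1 gene, which was not among the 9. The interaction was -0.89 (SE 0.67) on the log2 scale for Egr2, the widest interval, -0.37 (SE 0.19) for Nab2 and -0.032 (SE 0.21) for Nr4a3, so that sizeable differences between the sets were not detectable for Egr2.

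Library set went with larger differences than treatment for several of the genes. Nr4a3 was at 64.8 to 75.9 CPM in the 6 rats of set A and at 144 to 178 CPM in the 5 of set B, 2.19-fold higher in B. Egr3 was at 23.3 to 31.2 CPM in set A and 43.8 to 79.8 CPM in set B, 2.14-fold higher. Nab2 went the other way, at 44.5 to 50.9 CPM in set A and 26.8 to 43.3 CPM in set B, 1.37-fold higher in A. These 3 of the 9 genes did not overlap between sets, beside 49.1% of all genes tested, so that their share is not above the background. Egr1 and Egr2 were each 1.65-fold higher in set B with overlap, for Egr2 1.05-fold without control rat 5, and Nr4a1 (1.12-fold), Egr4 (1.02-fold), Nab1 (1.05-fold) and Nr4a2 (1.18-fold) differed less. Summed levels of marker genes also went with the sets, without overlap for hippocampal neurons (3245 to 4187 CPM in set A and 4348 to 6309 in set B), microglia (369 to 432 and 162 to 265), endothelium and pericytes (137 to 197 and 273 to 349) and blood cells (176 to 248 and 54.8 to 134), and their part in the values of Nr4a3, Egr3 and Nab2 was not tested. The sets were chosen on these libraries, and their differences are a description without a test.

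**Figure D4:**
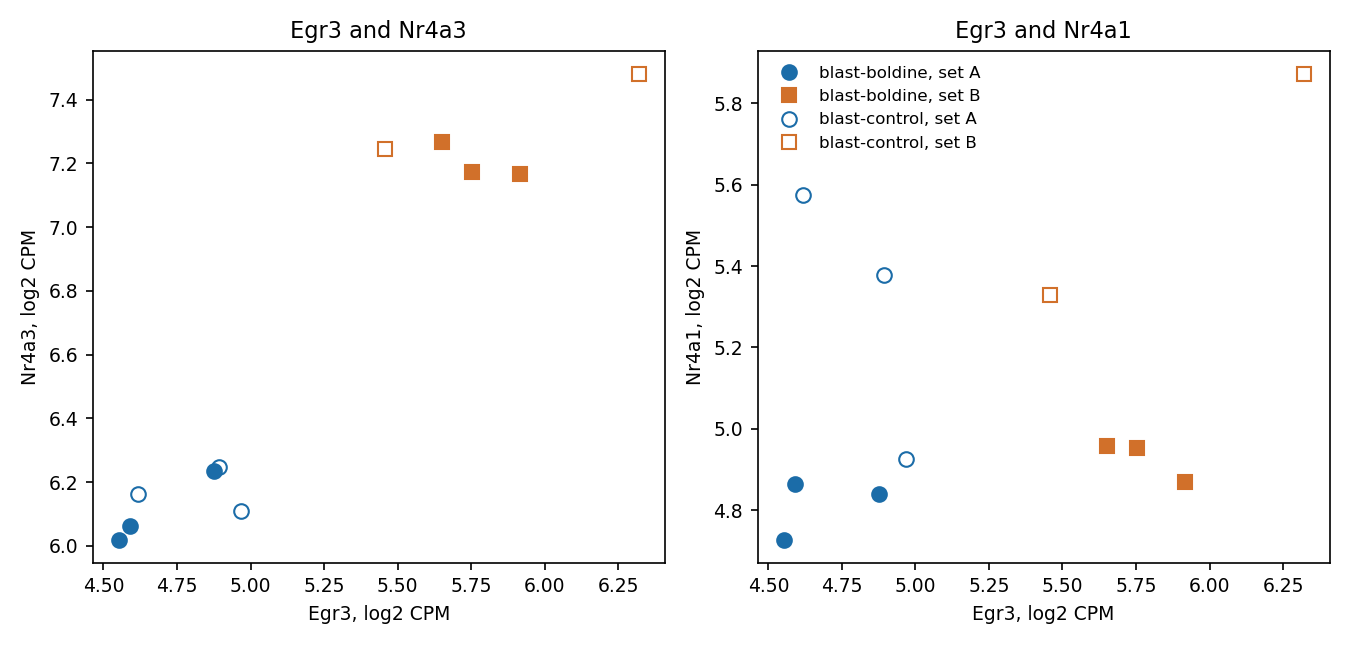
Log2 CPM of Egr3 against Nr4a3 (left) and against Nr4a1 (right) in 11 rats, with filled symbols for blast-boldine, open symbols for blast-control, circles for set A and squares for set B. Egr3 and Nr4a3 form 2 clusters by library set, whereas the highest Nr4a1 values are those of blast-controls in both sets.

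Because the libraries cluster by set, correlations among the 9 genes were computed on log2 CPM as deviations from the mean of each treatment in each set, over 11 rats. Of 36 pairs, 22 were positive, the median Pearson r was 0.053, and r ranged from -0.59 for Egr4 with Nr4a2 to 0.86 for Egr1 with Egr3. By an exact two-sided permutation test within treatment and set, with 432 permutations, 0 pairs passed after Benjamini-Hochberg adjustment and 1 pair, Egr1 with Nab1 (r = 0.39, p = 0.0278), was under 0.05 before it, with a rho of 0.44 (p = 0.137) and an r of 0.66 without the 2 farthest rats. The smallest p these permutations can give is 0.00231, so that no single pair could have passed the adjustment over 36. For Egr1 with Egr3 the exact permutation p was 0.0833 (adjusted 0.942), Spearman's rho was 0.86 (exact permutation p = 0.037, adjusted 0.970), and r was 0.59 without the 2 rats farthest from the median of Egr1. For Egr2 with Nr4a2, r was 0.69 (exact permutation p = 0.12, adjusted 0.942) rho was 0.68 (exact permutation p = 0.169, adjusted 0.970), and r was 0.55 without the 2 farthest rats. Of the 36 pairs, 27 kept their sign without the 2 farthest rats.

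The values depend on single rats, and leaving out 1 rat at a time moved the median r between -0.0084 and 0.19, the highest without control rat 1. Rats 4 and 5 are the only controls of set B with usable depth, so that their deviations mirror each other, and they hold the highest and the lowest deviation of Egr1, Egr3 and Egr4. Without them, an alternative chosen after seeing the data, 26 of 36 pairs were positive, the median r was 0.17 and 0 pairs passed the adjustment. Over those 9 rats Egr1 with Egr3 had an r of 0.59 (exact permutation p = 0.167, adjusted 0.968), whereas Egr1 with Egr4 went from 0.60 to 0.084, Egr3 with Egr4 from 0.65 to 0.17 and Egr2 with Egr3 from -0.58 to -0.15. Egr2 with Nr4a1 had an r of 0.70 (exact permutation p = 0.0185, adjusted 0.50), against 0.043 over 11 rats.

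**Figure D5:**
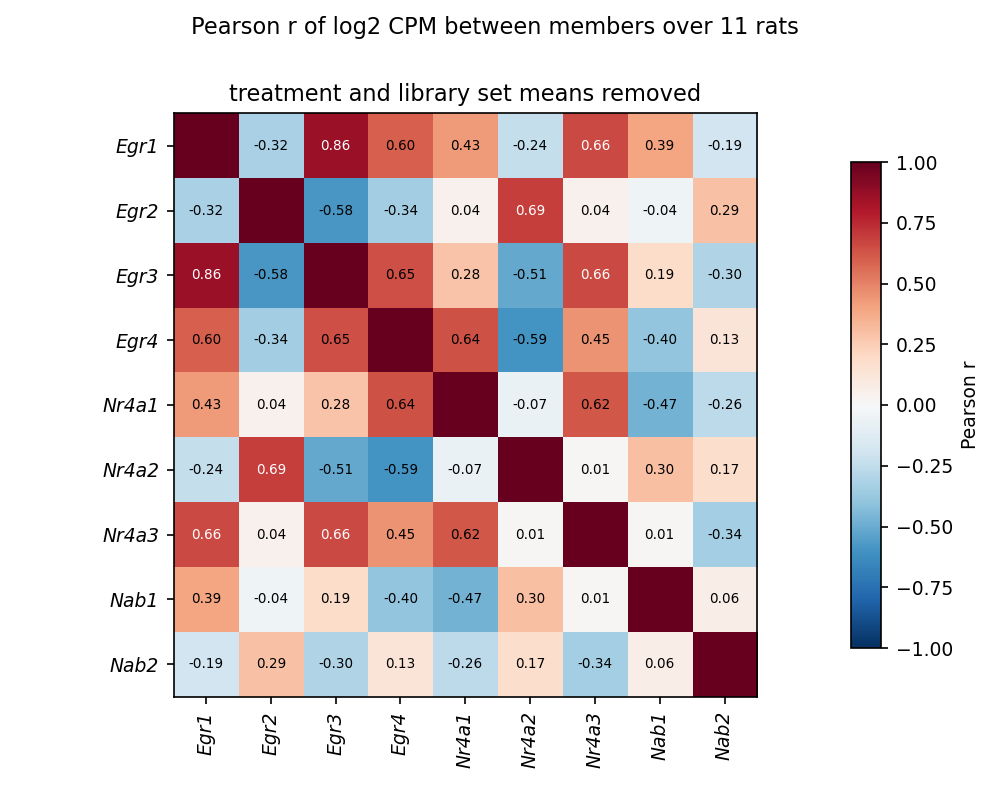
Pearson r of log2 CPM between each pair of the 9 genes over 11 rats after removal of the mean of each treatment and library set, on a colour scale from -1 to 1. The highest value is that of Egr1 with Egr3 (0.86), and the values of Egr4 with Egr1 (0.60) and Egr3 (0.65) fall to 0.084 and 0.17 without rats 4 and 5.

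The genes whose deviations over the 11 rats were most like the mean z score of the EGR genes, among 11952 genes ranked, were Tmem97 (r = 0.97), Prelid1 (0.97) and Kcnc1 (0.96). For the NR4A genes they were Henmt1 (0.95), Srrm2 (0.93) and Camsap3 (0.92). Arc, an activity-induced regulator of synapses, stood at r = 0.79 with the EGR mean and 0.60 with the NR4A mean, Fosb at 0.21 and 0.63, Fos at -0.12 and 0.26, Junb at 0.31 and 0.24, Npas4 at 0.15 and 0.11, and Homer1 at -0.56 and -0.18. By rank for the EGR and the NR4A mean, Arc stood at 567 and 323, Fosb at 4818 and 242, and Junb at 4169 and 3081. Npas4 stood at 5145 and 4540, Fos at 6773 and 2878, and Homer1 at 9703 and 7591. The median r within the families was 0.14 (EGR) and 0.012 (NR4A), so that each mean joins genes that did not all move together. All these values share the same 11 libraries, are not given without rats 4 and 5, and are a description.

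Other activity-regulated genes, from a list of 50 of which 48 were tested, had a lower fitted value in 36 and a higher value in 12, beside 48.7% lower among all genes tested, with a median log2 fold change of -0.13. Of these, 0 passed the adjusted test in edgeR, and 3 were lower at an unadjusted p under 0.05, beside 0.519% of all genes. Fosb, a partner of JUN proteins that accumulates with repeated activity, had 9.15 ± 2.05 CPM in controls (n = 5) and 6.22 ± 1.31 in treated rats (n = 6). Fos had 15.5 ± 6.80 and 10.7 ± 4.79 CPM, and Junb 50.6 ± 9.98 and 42.9 ± 12.5. Arc had 126 ± 24.6 and 103 ± 11.3 CPM. Npas4, a neuronal factor induced by calcium entry, had 9.65 ± 2.77 and 8.76 ± 4.17 CPM, and the synaptic scaffold gene Homer1 217 ± 44.8 and 213 ± 21.9. Of 17 upstream regulators tested, 8 were lower and 9 higher, with a median of 0.011, and 0 passed. Srf had 87.0 ± 8.61 and 80.6 ± 4.68 CPM, Elk1 65.8 ± 11.004 and 65.1 ± 11.3, and Creb1 19.7 ± 3.44 and 21.5 ± 2.12. The widest fold change among the regulators, singled out after its value was seen, was that of Crtc1, a coactivator of CREB, at -0.93 (SE 0.66) on the log2 scale, with 64.8 to 197 CPM in controls and 48.8 to 167 CPM in treated rats. The retinoid X receptors, with which NR4A1 and NR4A2 can pair on DNA, were at 18.4 ± 3.49 and 16.4 ± 1.81 CPM (Rxra), 56.4 ± 3.80 and 51.0 ± 7.10 (Rxrb) and 6.81 ± 1.88 and 9.36 ± 3.33 (Rxrg), in the same order of groups.

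Markers of the cell types that a hippocampal dissection can hold were followed beside these genes, and 0 passed the adjustment in edgeR, with 1 gene, of the meninges list, higher at an unadjusted p under 0.05, beside 0.552% of all genes. The fitted value was lower in treated rats for 5 of 10 hippocampal neuron genes, 5 of 8 interneuron, 5 of 7 astrocyte, 9 of 9 microglia, 3 of 7 oligodendrocyte, 0 of 8 endothelium, 5 of 8 cortex, 3 of 3 Schwann cell and 3 of 6 blood genes, beside 48.7% of all genes tested. It was lower for 1 of 8 choroid plexus and 1 of 8 meninges genes, with medians of 0.33 and 0.57. The summed choroid plexus level ran from 14.9 to 1331 CPM in controls and from 10.2 to 1351 CPM in treated rats, and the summed meninges level from 170 to 589 and from 227 to 756 CPM. The summed level of hippocampal neuron genes was 3245 to 6309 CPM in controls and 3716 to 4906 CPM in treated rats. Their part in the values of the 9 genes was not tested, and in bulk tissue fewer cells of a type and less RNA per cell cannot be told apart.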

How the data were processed

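Before deposit, the authors cleaned the reads in HTStream (duplicates of PCR removed, ends trimmed), mapped the pairs on mRatBN7.2 by STAR 2.7.11b, allowing up to 20 alignments per read, and counted them by strand on RefSeq exons with featureCounts (Subread 2.0.1). The deposited values are these raw counts per gene, without normalization. Groups came from the sample labels. Ages, doses and times came from the study's methods.

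All genes were fitted with edgeR 4.0.16 in R 4.3.3 (quasi-likelihood test, TMM, filterByExpr at a minimum count of 10, treatment as the only term, 12 rats, two-sided, Benjamini-Hochberg adjustment over 12325 genes). Log2 CPM used a prior count of 2. DESeq2 1.42.0, limma-voom (limma 3.58.1), other size factors and filters, library set as a covariate and leaving out each rat were alternatives. Scripts were tested on simulated data. Correlations, motif searches and plots used Python 3.11.15, numpy 2.4.6, pandas 2.3.3 and matplotlib 3.10.9.

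The members, gene lists and library sets were chosen with earlier results of these data known. Named genes were all 9 members, the 3 genes most like each family and fixed genes of the lists. The Schwann and hippocampal markers and Crtc1 given with values were chosen after their values were seen. Of the lists, 5 upstream regulators, Dsp and Ly6c1 were not analysed here.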

Additional observations from a re-analysis of the deposited data

Results flagged for a closer look

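Among 27 groups of 4 to 10 rats examined for a rat far from the others, 3 held one, and chance alone gives about 1 in 20 groups. Egr1 in blast-control rat 4 was at 80.8 CPM, and the nearest of the other 4 controls with usable depth was at 42.1 CPM. Egr4 in blast-boldine rat 17 was at 3.37 CPM, from 34 counts, and the nearest of the other treated rats was at 4.93 CPM. Nab1 in blast-control rat 1, the deepest library, was at 75.9 CPM, and the nearest control was at 64.0 CPM.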

How the results depend on the processing

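No paired analysis was possible because the groups share no rat numbers. Over the alternatives, 159 of 181 fold changes of the members kept their direction, and 22 reversed, all of Egr1, Egr3, Nr4a3 or Nab1. Nr4a3 was at -0.079 with library set as a covariate, -0.11 with that covariate and without rat 6, and -0.017 in DESeq2 without rat 6. Nab1 was at -0.0011 in DESeq2, -0.0068 with RLE size factors and -0.013 with upper-quartile size factors. Leaving out 1 rat at a time gave -0.38 to 0.031 for Egr1, -0.26 to 0.23 for Egr3, -0.089 to 0.29 for Nr4a3 and -0.014 to 0.071 for Nab1. It gave -1.32 to -0.60 for Egr2, -0.87 to -0.56 for Egr4, -0.73 to -0.52 for Nr4a1, -0.56 to -0.36 for Nr4a2 and -0.28 to -0.14 for Nab2. The causes were not tested. A minimum of 10 counts in every rat left 1 member, Nr4a2, at -0.49, since rat 6 is so shallow. With no means removed, where treatment and library set both enter r, 7 pairs of members passed the adjustment and the median r was 0.32. With treatment means only, where library set enters r, 5 pairs passed. Egr2 with Nr4a2 and Egr4 with Nr4a1 passed only with no means removed. These 2 alternatives used 100000 random permutations, which can give smaller p-values than the 432 of the main test, so that their counts cannot be set directly against its count. Counting error was largest for Egr2 and Egr4, and in both groups it was below the spread between rats. For Egr4 the coefficient of variation was 38.8% in controls and 18.8% in treated rats, where counting alone gives 9.51% and 11.5%.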
